A study of Mus musculus with 13 samples.

Results

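Heat shock proteins and chaperones were followed as 10 genes of the 18649 in the deposited table, taken where the gene symbol equalled Hspa1a, Hspa1b, Hspa8, Hspa5, Hsp90aa1, Hsp90ab1, Hsph1, Dnajb1, Hspd1 or Hspe1. They were selected on their scaled counts in these same libraries, in which the inducible ones vary between experiments, so the difference between experiments is given for these 10 genes as a description with no test. The libraries hold total RNA of sorted mouse splenic CD4+ T cells that carry a GFP reporter for Foxp3, the transcription factor of regulatory T cells. PD1hi cells (3 libraries) carried much surface PD-1, an inhibitory receptor, and no GFP, Treg (5 libraries) carried GFP and no PD-1, and conventional cells (Tconv, 5 libraries) carried neither. Titles assign the libraries to experiments 6, 3 and 5, each with all 3 populations. In 4 cases a second library of a population and experiment is titled replicate, with nothing on whether the animals differed, so the p-values reflect only how far these samples scatter, some of which may be technical. The sources used here give no strain, age, sex or treatment of the mice.

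Chaperones bind unfolded or newly made proteins and keep them from clumping. The Hsp70 proteins work with J-domain partners such as Dnajb1, which hands over clients, and with nucleotide exchange factors such as Hsph1, while Hsp90 matures kinases and hormone receptors, among them Lck in T cells. Heat and other proteotoxic stress release heat shock factor 1, which binds heat shock elements (inverted repeats of GAA and TTC) and switches on Hspa1a, Hspa1b, Dnajb1 and Hsph1; Hspa8 and Hsp90ab1 are made in unstressed cells, Hspa5 (BiP) serves the endoplasmic reticulum, and Hspd1 with Hspe1 forms the folding chamber of mitochondria.

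The 250 bases upstream of the annotated start were taken from RefSeq (build GRCm38.p6) for 7 of the 10 genes, and those of Hspa8, Hsp90aa1 and Hsp90ab1 were not analysed here. The windows of the heat shock inducible genes are shown because the comparison of experiments below turns on such genes, with Hspa1a, Hspa1b and Dnajb1 lower and Hsph1 higher in experiment 6, 5′ to 3′ on the strand of the gene, with capitals marking the heat shock element cores GAANNTTC or TTCNNGAA. Hspa1a lies at chr17:34972157-34972406 (minus strand), Hspa1b at chr17:34959239-34959488 (minus strand), Dnajb1 at chr8:83607925-83608174 (plus strand) and Hsph1 at chr5:149636337-149636586 (minus strand).
Hspa1a: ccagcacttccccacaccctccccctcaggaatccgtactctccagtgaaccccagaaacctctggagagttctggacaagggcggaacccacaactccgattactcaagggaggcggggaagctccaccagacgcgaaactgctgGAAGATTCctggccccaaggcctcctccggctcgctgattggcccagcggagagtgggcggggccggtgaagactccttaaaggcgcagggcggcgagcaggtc
Hspa1b: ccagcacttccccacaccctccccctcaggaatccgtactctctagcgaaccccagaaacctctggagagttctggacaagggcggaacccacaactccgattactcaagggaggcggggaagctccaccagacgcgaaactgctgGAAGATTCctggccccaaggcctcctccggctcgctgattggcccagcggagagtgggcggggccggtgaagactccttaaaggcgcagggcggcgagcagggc
Dnajb1: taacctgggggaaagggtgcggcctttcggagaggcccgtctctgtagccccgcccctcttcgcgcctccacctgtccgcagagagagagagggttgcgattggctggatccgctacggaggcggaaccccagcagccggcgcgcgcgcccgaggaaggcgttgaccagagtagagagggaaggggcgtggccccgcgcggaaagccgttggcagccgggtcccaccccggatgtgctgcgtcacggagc
Hsph1: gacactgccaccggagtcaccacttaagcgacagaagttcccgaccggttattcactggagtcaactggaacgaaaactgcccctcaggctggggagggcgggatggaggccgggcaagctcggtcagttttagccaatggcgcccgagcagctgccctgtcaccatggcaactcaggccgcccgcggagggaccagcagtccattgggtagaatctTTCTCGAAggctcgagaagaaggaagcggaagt
Hspa1a and Hspa1b, a pair of neighbouring genes, differed at 3 of 250 bases, none of them in the capitals, and both held GAANNTTC 104 to 97 bases upstream of the start. Hsph1 held TTCNNGAA 33 to 26 bases upstream, and the Dnajb1 window held neither core. Of 32817 such windows over all genes, 6.69% held GAANNTTC, 7.16% held TTCNNGAA and 12.8% held either, both strands searched. A match is a description of the letters and not a bound site.

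The mitochondrial pair Hspd1 and Hspe1 is read in opposite directions from a shared region, and the endoplasmic reticulum member Hspa5 carries another kind of element. Below are 30 bases upstream of Hspe1 (chr1:55088053-55088082, plus strand), with overlapping heat shock elements of 3 units in capitals, and the Hspa5 window (chr2:34771840-34772089, plus strand), with the endoplasmic reticulum stress element (ERSE, which starts with a CCAAT box) in capitals.
Hspe1: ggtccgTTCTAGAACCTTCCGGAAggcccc
Hspa5: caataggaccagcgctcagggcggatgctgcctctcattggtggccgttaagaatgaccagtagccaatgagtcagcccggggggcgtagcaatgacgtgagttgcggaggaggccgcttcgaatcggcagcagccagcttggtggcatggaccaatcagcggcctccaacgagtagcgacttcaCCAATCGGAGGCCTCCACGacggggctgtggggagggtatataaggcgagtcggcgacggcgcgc
These 3-unit elements, a core of GAANNTTC or TTCNNGAA with a further unit at the same spacing, lay 89 to 72 bases upstream of Hspe1, and 0.466% of all windows held one. The ERSE of Hspa5 lay 65 to 47 bases upstream, and 0.113% of all windows held one, both strands searched.

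Values below are scaled counts, the reads of a gene divided by a size factor of its library, as the authors scaled them. Depth ran from 15971126 reads in genes (PD1hi, experiment 6) to 24216463. The sort matched the labels: Pdcd1, which encodes PD-1, ran from 33610 to 39713 in PD1hi, 1715 to 2266 in Treg and 900.5 to 1374 in Tconv, and Foxp3 from 67.7 to 129 in PD1hi, 12904 to 18885 in Treg and 232 to 332 in Tconv. On the third principal component (7.88% of variance) 2 libraries stood apart, PD1hi of experiment 6 at -53.3 and, from experiment 3, the second of the Treg libraries at -50.7, against -12.2 to 35.4 in the other 11. They also had the highest shares of reads in mitochondrial genes, 2.93% and 2.70%, against 1.53% to 2.38%. Summed markers of B cells (7 genes) ran from 1672 to 2265 in PD1hi, 787 to 1242 in Treg and 202 to 397 in Tconv, mostly from Cd22 in PD1hi (1488 to 1949), while Pax5 reached 10.1 at most there.

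The inducible Hsp70 gene Hspa1a was the most variable of the 10 genes, with a 136-fold range over the 13 libraries. In PD1hi it stood at 68.5 in experiment 6, against 1765 and 1583 in experiments 3 and 5. In Treg it was 18.7 and 12.9 in the libraries of experiment 6, against 349 and 405 in experiment 3 and 330.1 in experiment 5. In Tconv it was 17.8 and 17.1 in experiment 6, against 666 in experiment 3 and 443 and 565 in experiment 5. Every library of experiment 6 was thus below every library of experiments 3 and 5, and the means of a population were lower by 23.1- to 25.8-fold in PD1hi, 20.8- to 23.8-fold in Treg and 28.9- to 38.2-fold in Tconv. With population as a term, experiment 6 differed from the mean of experiments 3 and 5 by -4.65 on the log2(scaled count + 1) scale. The experiment 6 values rest on 63 reads in PD1hi (exact 95% Poisson interval of the scaled count 52.6 to 87.6), 20 and 12 reads in Treg and 15 and 20 reads in Tconv, and such intervals cover counting error only.

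Hspa1b, the neighbouring copy that encodes nearly the same protein, was low in the same libraries. It stood at 58.7 in PD1hi of experiment 6, against 258 and 163 in experiments 3 and 5. Treg libraries had 13.1 and 3.23 (3 reads) in experiment 6, against 74.9 and 209 in experiment 3 and 32.0 in experiment 5. Tconv libraries had 11.8 and 8.55 in experiment 6, against 133 in experiment 3 and 69.3 and 78.9 in experiment 5. Within each population experiment 6 was the lowest, although PD1hi of experiment 6 lay above Treg of experiment 5, and the difference between experiments was -2.62 on the log2 scale. Of the 100-base stretches of Hspa1a, 47.1% also occur in Hspa1b, and the annotated gene Gm20481 overlaps Hspa1a by 2225 bases on the opposite strand, so the split of reads between the copies is uncertain and the strand setting of the counting is not given. The sum of both copies was 127 in PD1hi of experiment 6, against 2023 and 1746 in experiments 3 and 5. In Treg the sum was 31.8 and 16.2, against 424, 614 and 362, and in Tconv 29.6 and 25.7, against 799, 513 and 644.

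**Figure D1:**
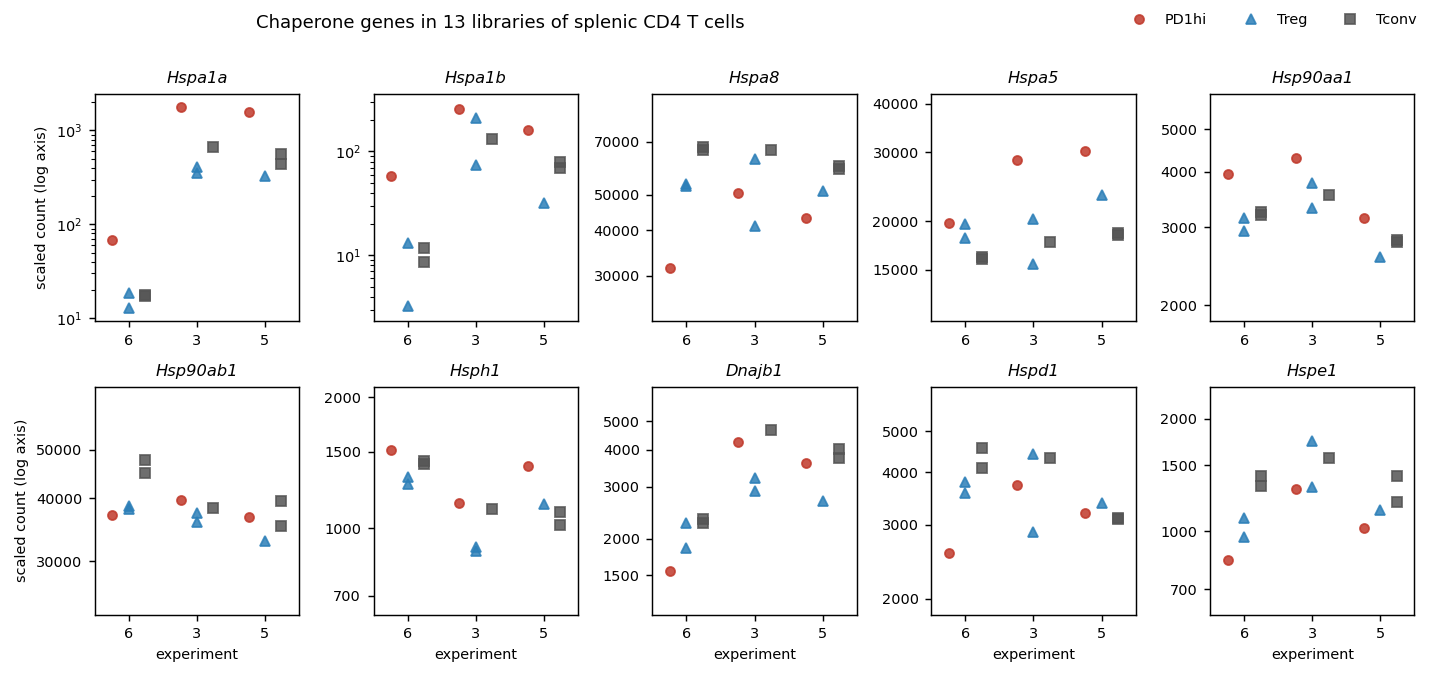
Scaled counts (log axes that differ between panels) of the 10 chaperone genes in 13 libraries, by experiment from left to right 6, 3 and 5, with PD1hi as red circles, Treg as blue triangles and Tconv as grey squares. Hspa1a lies at 12.9 to 68.5 in experiment 6, against 330.1 to 1765 in experiments 3 and 5, and PD1hi is the highest population in each experiment.

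Dnajb1, the J-domain partner of inducible Hsp70, followed the same order of experiments with a smaller step. It was 1547 in PD1hi of experiment 6, against 4261 and 3622 in experiments 3 and 5. Treg had 1861 and 2254, against 3211, 2892 and 2689, and Tconv had 2325 and 2259, against 4689, 3752 and 4024. The experiment 6 values did not overlap those of experiments 3 and 5, and the difference was -0.91 on the log2 scale. Across the 9 means of a population and experiment, each taken as its deviation from its population, Hspa1a and Dnajb1 had Pearson's r of 0.93 and Hspa1a and Hspa1b 0.91, a description over 9 values that share libraries, scaling and 3 experiments.

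Hsph1, the exchange factor of Hsp70 that is also known as an inducible gene, ran the other way. It was 1512 in PD1hi of experiment 6, against 1145 and 1390.3 in experiments 3 and 5. Treg had 1265 and 1315, against 888, 906 and 1138, and Tconv had 1409 and 1429, against 1109, 1091 and 1018.5. Each population had its highest mean in experiment 6, although values overlapped between populations, with a difference of 0.33 on the log2 scale, and the deviations of Hsph1 had r = -0.84 with Hspa1a and -0.94 with Hspa1b (9 values). Hsp90aa1, the inducible form of cytosolic Hsp90, differed by 0.05. Among the other members the differences were -0.14 for Hspa8, -0.29 for Hspa5, 0.13 for Hsp90ab1, -0.04 for Hspd1 and -0.30 for Hspe1, so Hspa5 and Hspe1 differed by nearly as much as Hsph1, in the other direction. Of the 10 genes, 2 (Hspa1a and Dnajb1) had experiment 6 values that did not overlap the other experiments, both lower in experiment 6, beside 2.09% of all 14177 genes tested that did not overlap in either direction. The members' median difference was -0.22 and that of all genes -0.03. The members were chosen with this variation between experiments known, so nothing about chaperones is read from either comparison with all genes.

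Genes outside the 10 were tested for the same difference with limma across all genes. The populations of an experiment served as its replicates, in a comparison of experiment 6 with experiments 3 and 5 only. The errors and p-values of this comparison therefore do not measure the spread between experiments. Past an adjusted p of 0.05 were 0.0353% of all tested genes, all lower in experiment 6. Outside the members 4 genes passed. They are Fos, Jun and Junb, subunits of the immediate early transcription factor AP-1, and Ppp1r15a (GADD34), a stress-induced phosphatase subunit that is in none of the lists and is named after its values were seen. Over the means of a population and experiment, Fos ran from 4288 to 4964 in experiment 6, 15928 to 18284 in experiment 3 and 6624 to 8332 in experiment 5 (log2 difference of experiment 6 from the mean of the others -1.26 ± 0.09 SE, adjusted p = 0.00253 by limma). Jun ran from 579 to 1323 in experiment 6, 1487 to 2455 in experiment 3 and 2359 to 4619 in experiment 5 (-1.51 ± 0.13, adjusted p = 0.00555 by limma). Junb ran from 431 to 614 in experiment 6, 914 to 1076 in experiment 3 and 2741 to 4122 in experiment 5 (-1.81 ± 0.17, adjusted p = 0.0108 by limma). These 3 did not overlap between experiment 6 and the others. Fos and Junb did not overlap between experiments 3 and 5 either, with Fos higher in experiment 3 and Junb higher in experiment 5. Without the Tconv value of experiment 6 all 3 missed the threshold (adjusted p 0.0657 for Fos, 0.103 for Jun and 0.154 for Junb by limma). Jun also missed it without Tconv of experiment 3 or Treg of experiment 5, and Junb without Treg of experiment 3 or 6 or Tconv of experiment 3 (adjusted p 0.0543 to 0.0972 by limma).

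Of 20 tested immediate early genes, 3 fell and 17 did not pass, 19 of 20 had a negative difference, 11 had an unadjusted p under 0.05, and the median was -0.37. The other chaperone lists showed no called gene by limma: 0 of 21 other heat shock inducible genes, 0 of 29 cytosolic co-chaperones and Hsp70 relatives, 0 of 25 endoplasmic reticulum genes, 0 of 14 mitochondrial genes, 0 of 14 chaperonin and prefoldin genes and 0 of 3 heat shock factors. Unadjusted p-values under 0.05 numbered 3, 3, 2, 1, 2 and 1 in these lists, in the same order, and no other tool was run. Their medians lay between -0.10 and -0.03, and the median of all tested genes was -0.03. The shares of all genes with a negative difference or an unadjusted p under 0.05 are not given here. The counts of such genes, also among the immediate early genes, are therefore not read as particular to a list. Without the PD1hi library of experiment 6, 11 listed genes outside the members passed in place of 3, and 1.3% of all genes: 9 immediate early genes, among them Dusp1 (-1.77 ± 0.20, adjusted p = 0.0022) and Fosb (-1.28 ± 0.21, adjusted p = 0.0172), were then lower by limma. The Hsp90 co-chaperone Cdc37 was then lower (-0.57 ± 0.09, adjusted p = 0.0154) and the Hsp70 to Hsp90 adaptor Stip1 higher (0.53 ± 0.08, adjusted p = 0.0142) by limma.

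**Figure D2:**
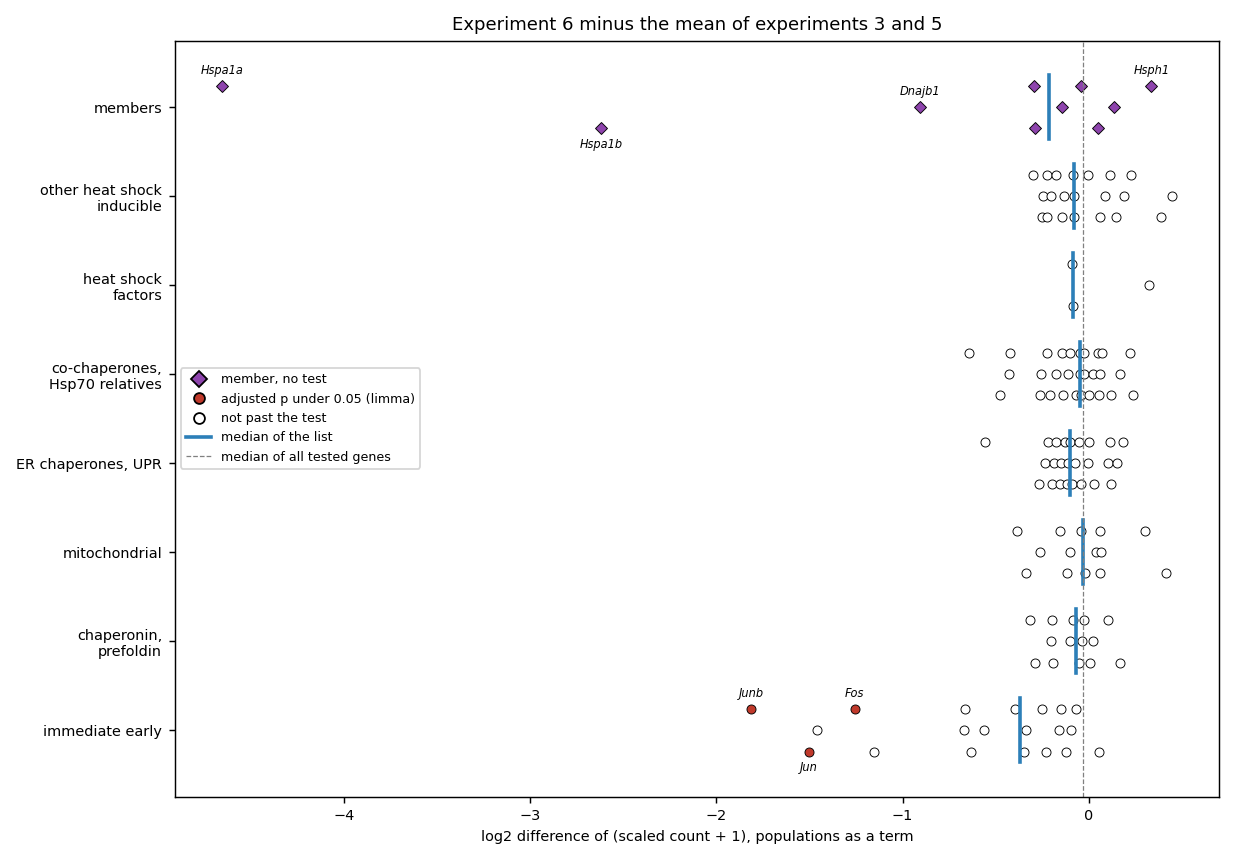
Log2 difference of (scaled count + 1), experiment 6 minus the mean of experiments 3 and 5, for the 10 members (diamonds, no test) and for 7 other lists (circles, red where limma's adjusted p was under 0.05), with the median of each list as a blue bar. Hspa1a at -4.65, Hspa1b at -2.62 and Dnajb1 at -0.91 lie left of the other chaperones, and Junb, Jun and Fos at -1.81 to -1.26 are the red points.

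PD1hi cells were then compared with Tconv and with Treg. Against Tconv, PD1hi cells had more Hspa5 and less Hspa8: 2 of the 10 genes passed limma's test, 1 higher (background 14.2%) and 1 lower (background 11.9%), beside 26.1% of all 14177 genes in either direction. Means per experiment of 3 genes (Hspa8, Hspa5 and, by a very narrow margin, Hspe1) did not overlap between PD1hi and Tconv, beside 39.9% of all genes. In bulk RNA, a change in the cells that make a transcript and in the transcript per cell cannot be told apart. Within each experiment PD1hi cells also had 2.65 to 3.93 times the Hspa1a of Tconv and 4.33 to 4.80 times that of Treg. These differences passed with experiment as a block in the fit or without experiment 6, and not otherwise. Leaving out experiment 6 was chosen after seeing the data.

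Hspa8, the constitutive cytosolic Hsp70, was 31486, 50643 and 43270.2 in PD1hi of experiments 6, 3 and 5, against 66414 and 67702.5, 66284, and 58938.5 and 59906.5 in Tconv. The populations did not overlap, with means of 41799.7 ± 9662 in PD1hi and 64255 ± 4203 in Tconv (SD, n = 3 each), and PD1hi was lower by -0.65 ± 0.17 on the log2 scale (adjusted p = 0.0134 by limma). Treg had 53490.3 and 52936 in experiment 6, 62879 and 41064 in experiment 3 and 51161 in experiment 5. Its means lay between those of PD1hi and Tconv in each experiment, with an average of 52115 ± 1033 (SD, n = 3). PD1hi against Treg gave -0.35 ± 0.17 (adjusted p = 0.21 by limma), and Treg against Tconv -0.30 ± 0.17 (adjusted p = 0.31 by limma). The size of the PD1hi difference from Tconv varied by experiment, at -1.09 in experiment 6, against -0.39 and -0.46 in experiments 3 and 5. Without the PD1hi library of experiment 6 the difference was -0.45 and still passed (adjusted p = 0.0144 by limma). Without the Tconv value of experiment 6 it did not (-0.61, adjusted p = 0.0544), nor without all of experiment 6 (-0.42, adjusted p = 0.0707 by limma). Hspa8 shares 54.5% of its 100-base stretches with other annotated genes, so its level is uncertain where the counting split such reads.

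Hspa5, the main Hsp70 of the endoplasmic reticulum and a target of the unfolded protein response, ran opposite. It was 19743, 28625 and 30332 in PD1hi of experiments 6, 3 and 5. Treg had 18062 and 19634, 20211 and 15496, and 23363, and Tconv had 15981 and 16193, 17709, and 18384 and 18673. The order was PD1hi, Treg, Tconv from high to low in all 3 experiments. The mean was 26233 ± 5685.5 in PD1hi and 17442 ± 1242 in Tconv (SD, n = 3 each), a difference of 0.57 ± 0.17 (adjusted p = 0.0311 by limma). Against Treg (20022 ± 2936) the difference was 0.37 ± 0.17 (adjusted p = 0.188 by limma), and it passed without the PD1hi library of experiment 6 (0.57 ± 0.13, adjusted p = 0.0109 by limma). Against Tconv the call was lost without any 1 of 5 values, PD1hi of experiment 3 or 5 or Tconv of experiment 6, 3 or 5 (adjusted p 0.0532 to 0.117 by limma). The B cell marker sums given above move in the same order of populations, with PD1hi above Treg through Cd22. Cd79b ran the other way, from 84.9 to 159 in PD1hi against 450.5 to 724 in Treg. The part of B cell markers in Hspa5 was not tested.

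For Hspa1a the spread between experiments entered the fit without a block, and PD1hi against Tconv gave 1.66 ± 1.58 (adjusted p = 0.492 by limma). With experiment as a replicate block, as the titles pair the samples, it was 1.66 ± 0.19 (adjusted p = 0.000272 by limma), and against Treg 2.18 ± 0.19 (adjusted p = 9.02e-05 by limma). The ratio of PD1hi to Tconv was 3.93 in experiment 6, against 2.65 and 3.14 in experiments 3 and 5, and PD1hi was the highest population in all 3. Hspa1b was also highest in PD1hi in all 3 experiments, with 5.76 times the Tconv level in experiment 6, against 1.94 and 2.20 times in experiments 3 and 5. With the block its difference from Tconv was 1.496 ± 0.41 (adjusted p = 0.0242 by limma) and from Treg 1.96 ± 0.41 (adjusted p = 0.0102), against adjusted p-values of 0.324 and 0.245 without it.

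The mitochondrial co-chaperonin Hspe1 was lowest in PD1hi and highest in Tconv in all 3 experiments. It was 839, 1299.5 and 1019 in PD1hi of experiments 6, 3 and 5, against 1322 and 1404, 1569, and 1198 and 1403.5 in Tconv. Treg had 964 and 1083, 1316 and 1741, and 1144. The lower Tconv library of experiment 5 lay below PD1hi of experiment 3. The means per experiment did not overlap, but the nearest were almost equal, at 1299.5 in PD1hi of experiment 3 and 1301 in Tconv of experiment 5. The difference of -0.44 between PD1hi and Tconv passed with the block (± 0.13, adjusted p = 0.0321 by limma) and not without it (± 0.19, adjusted p = 0.124). Without the block it passed when PD1hi of experiment 3 was left out (-0.60, adjusted p = 0.0439 by limma). Its partner Hspd1 was 2572, 3731 and 3198 in PD1hi of experiments 6, 3 and 5. Treg had 3784 and 3569.8, 4425 and 2882, and 3376, and Tconv had 4556 and 4089, 4323, and 3115 and 3100.3. Hspd1 had no fixed order of populations, with -0.31 ± 0.17 between PD1hi and Tconv (adjusted p = 0.216 by limma). With the block, 5 of the 10 genes passed between PD1hi and Tconv (background 28%) and 2 between PD1hi and Treg (background 18.2%).

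The cytosolic Hsp90 genes had the narrowest ranges of the 10 over the 13 libraries, 1.67-fold for Hsp90aa1 and 1.45-fold for Hsp90ab1. Hsp90aa1 was highest in PD1hi in every experiment, at 3959, 4297 and 3144 in experiments 6, 3 and 5. Treg had 2936 and 3144, 3308 and 3781, and 2572, and Tconv had 3194 and 3249, 3545, and 2772 and 2809. The difference of PD1hi was 0.32 ± 0.16 from Treg (adjusted p = 0.243) and 0.25 ± 0.16 from Tconv (adjusted p = 0.307 by limma). Hsp90ab1, the constitutive form, was 37043, 39625 and 36709.9 in PD1hi of experiments 6, 3 and 5. Treg had 38600.4 and 38123, 37416.5 and 35821, and 32894.5, and Tconv had 47657 and 44932, 38182, and 39432 and 35182. Its difference between PD1hi and Tconv was -0.10 (95% interval -0.39 to 0.19), and the sign changed with libraries rescaled to equal totals (0.048). Hsph1 was highest in PD1hi in all 3 experiments too, with differences of 0.29 ± 0.18 from Treg and 0.18 ± 0.18 from Tconv (adjusted p = 0.343 and 0.522 by limma).

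Between PD1hi and Treg, 0 of the 10 genes passed limma without the block, beside 16.5% of all genes, and 0 had an unadjusted p under 0.05. Between Treg and Tconv it was also 0 of 10, beside 14.4%, with 0 at an unadjusted p under 0.05, and 9 of the 10 differences were negative with a median of -0.19, against 0.0061 over all genes (8 of 10 negative with libraries rescaled to equal totals). Dnajb1 was lowest in Treg in experiments 3 and 5 and lowest in PD1hi in experiment 6. A fit without experiment 6, chosen after seeing the data, rests on experiments 3 and 5 only. There Treg had less Dnajb1 (-0.58 ± 0.16, adjusted p = 0.0433) and less Hspa1a (-0.71 ± 0.20, adjusted p = 0.0474) than Tconv by limma. In that fit 1661 of 14112 genes were called. In experiment 6 itself the differences were -0.16 for Dnajb1 and -0.13 for Hspa1a. The members were chosen with the variation between experiments known, so nothing further is read from this fit.

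**Figure D3:**
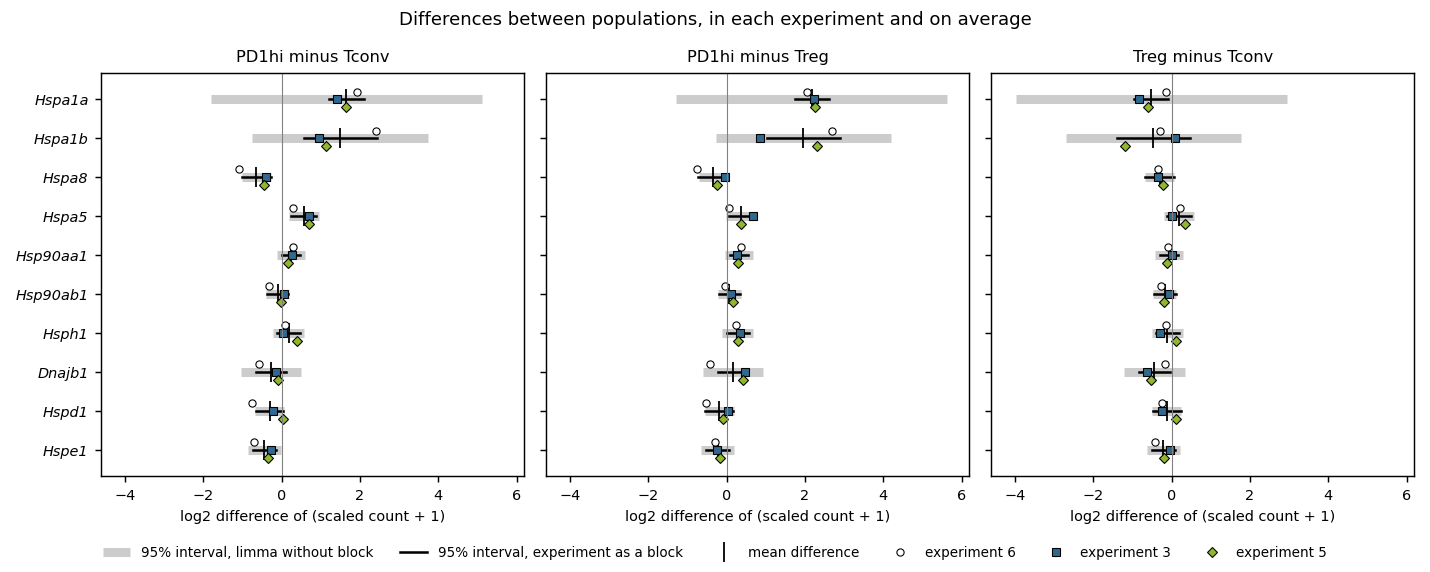
Log2 difference of (scaled count + 1) between populations for the 10 genes, as 1 symbol per experiment, a tick for the mean of 3, and 95% intervals from limma without a block (grey) and with experiment as a block (black). For Hspa1a in PD1hi minus Tconv the 3 experiments lie between 1.405 and 1.91, while the grey interval runs from -1.80 to 5.11 and the black one from 1.22 to 2.09.

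Levels of different genes were compared per kilobase of annotated exon. Hspa1a, Hspa1b, Hspa8 and Hsp90aa1 share 66.3%, 58.6%, 54.5% and 38% of their 100-base stretches with other annotated genes, against 0% for Hsp90ab1 and Hspa5. How such reads were counted is not given, so the order of genes is uncertain. In PD1hi, Hsp90ab1 had 12602 ± 532 scaled counts per kilobase, Hspa8 9719 ± 2247 and Hspa5 6203 ± 1344 (SD, n = 3). In Tconv the order at the top was Hspa8 at 14940.0 ± 977, Hsp90ab1 at 13536 ± 1652 and Hspa5 at 4124 ± 294. Ranges of Hsp90ab1 and Hspa8 did not overlap in PD1hi (12241 to 13213 and 7321 to 11775) and did overlap in Tconv (12440 to 15437 and 13816 to 15591). Hspd1, Dnajb1 and Hsp90aa1 followed in PD1hi at 1199 ± 219, 981 ± 443 and 967 ± 151, with ranges that overlap. Hspa1a spanned 23.1 to 595 per kilobase in PD1hi, and Hspa1b was the lowest of the 10 in all 3 populations: PD1hi had 57.0 ± 35.6, Treg 21.7 ± 25.5 and Tconv 25.9 ± 21.9 per kilobase.

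The wider chaperone network was described with lists around the 10 genes. Between PD1hi and Tconv, 3 other heat shock inducible genes rose and 2 fell of 21 tested: Hmox1, a heme-degrading stress enzyme, rose (505 ± 67.6 in PD1hi and 77.4 ± 8.85 in Tconv, log2 difference 2.69, adjusted p = 4e-06 by limma), with Bag3 and Hspa4l, while the J-domain gene Dnajb4 fell (86.4 ± 13.9 in PD1hi and 376 ± 122 in Tconv, -2.07, adjusted p = 0.000168 by limma), with P4ha1. Of 29 genes listed as co-chaperones and Hsp70 relatives 4 rose and 3 fell (6 and 2 with equal totals). Fkbp5, an Hsp90-bound immunophilin, rose (1220.1 ± 439 in PD1hi and 272 ± 28.4 in Tconv, 2.11, adjusted p = 0.000104 by limma), as did Hspa2 (199.97 ± 82.0 in PD1hi and 56.6 ± 19.1, 1.75, adjusted p = 0.0057 by limma), while Hspb11 fell (141 ± 35.2 in PD1hi and 328 ± 34.5 in Tconv, -1.24, adjusted p = 0.00219 by limma). Hspb11 is counted by its place in the list, and a role as a co-chaperone is not shown here. Of 25 endoplasmic reticulum genes 3 rose (Xbp1, Atf6 and Creld2) and 2 fell (Herpud1 and Edem1), 20 did not pass, and the median difference was -0.0030. With equal totals 3 were higher and 0 lower, with a median of 0.14. The counts of these lists stand beside 26.1% of all genes called between PD1hi and Tconv, and nothing particular to the lists is read from them. Xbp1 is also a plasma cell marker, and the summed plasma cell markers ran from 3950 to 7440 in PD1hi, 6679 to 9742 in Treg and 2274 to 3335 in Tconv. The sum includes Xbp1 itself. Igj ran from 2353 to 4954 in PD1hi, 2858 to 5540 in Treg and 1073 to 2042 in Tconv. Prdm1 ran from 399 to 859 in PD1hi, 1537 to 3023 in Treg and 540 to 662 in Tconv. Sdc1 reached 70.7 at most (PD1hi) and Tnfrsf17 31.0 at most (Treg).

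Of 14 chaperonin and prefoldin genes, whose products fold actin and tubulin, 0 rose and 3 fell in PD1hi against Tconv (Cct2, Cct5 and Cct7). Over all tested genes 14.2% were called higher and 11.9% lower. In this list 13 of 14 differences were negative and the median was -0.28. Treg against Tconv also had 13 of 14 negative, with a median of -0.19, and PD1hi against Treg had 10 of 14, with a median of -0.12. The direction against Tconv is thus not particular to PD1hi. Cct5, the largest of these, had 8190.2 ± 980 in PD1hi and 12291 ± 842 in Tconv (-0.59 ± 0.13, adjusted p = 0.00507 by limma). With libraries rescaled to equal totals, which shifts the median of all genes by 0.14, 11 of 14 stayed negative and 1 passed. Of 14 mitochondrial genes 0 rose and 1 fell, Trap1, the mitochondrial Hsp90 (-0.63 ± 0.13, adjusted p = 0.00355 by limma), and of 3 heat shock factors 0 passed. Immediate early genes went both ways, 4 up and 4 down of 20: Egr2 (2.496), Gadd45b (2.09) and Dusp1 (1.96) rose by limma, while Myc (-1.98) and Klf2 (-1.96) fell, on the log2 scale. The Dusp1 call was lost without PD1hi of experiment 3 or 5 (adjusted p 0.0563 and 0.0722 by limma).

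**Figure D4:**
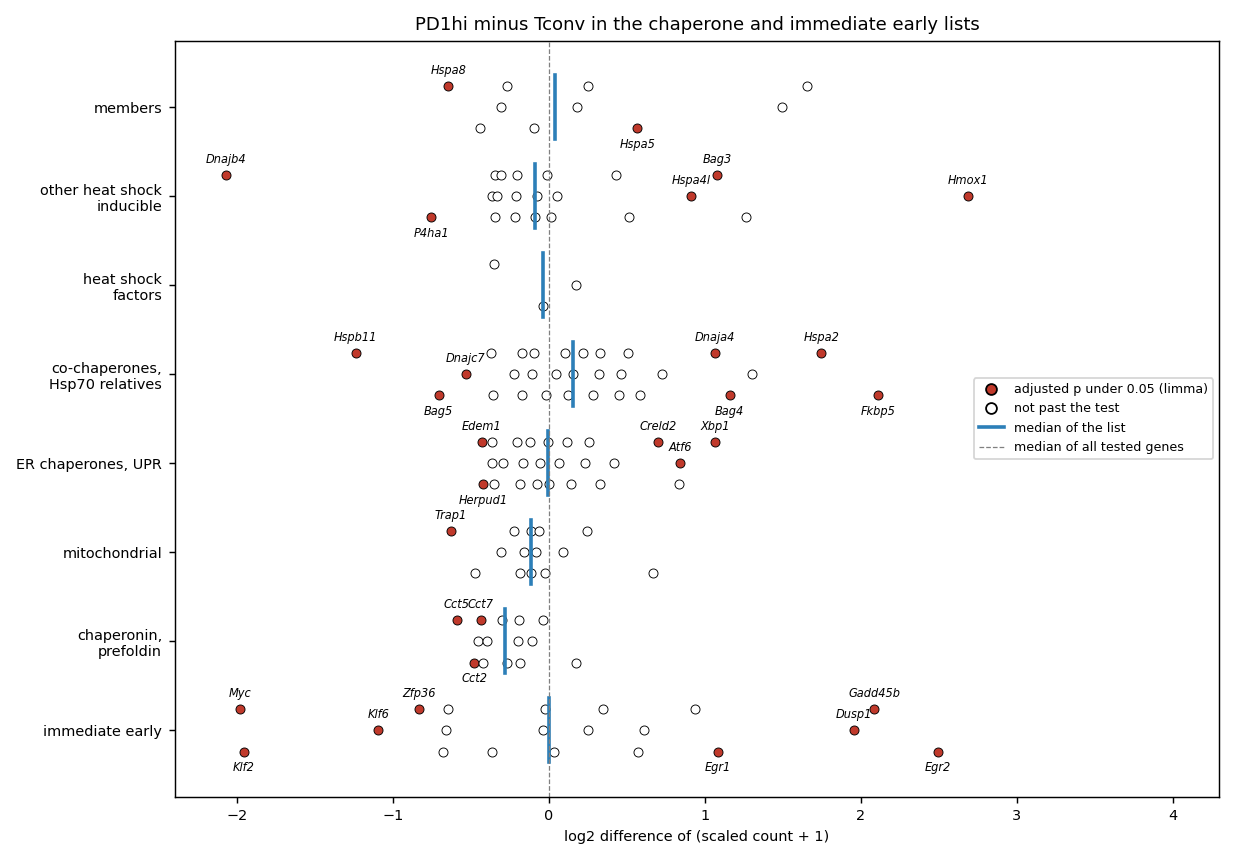
Log2 difference of (scaled count + 1), PD1hi minus Tconv, for the 10 members and 7 other lists, red where limma's adjusted p was under 0.05, with the median of each list as a blue bar and of all tested genes as a dashed line. The chaperonin and prefoldin genes lie mostly left of 0, with a median of -0.28, while the other lists hold genes on both sides.

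Against Treg, PD1hi had the same directions for Hmox1 (2.34) and Fkbp5 (1.77), which rose, and Dnajb4 (-1.94) and Myc (-1.85), which fell, and the comparison shares the PD1hi libraries with the one above. P4ha1, a collagen prolyl hydroxylase subunit that responds to low oxygen, was 769 ± 93.5 in PD1hi and 3063 ± 272 in Treg (-1.996, adjusted p = 5.21e-06 by limma). Edem1, a lectin of endoplasmic reticulum degradation, was 1477 ± 266 in PD1hi and 3921 ± 103 in Treg (-1.42, adjusted p = 3.18e-05 by limma). Ier3, Egr2 and Egr1 rose (2.41, 1.53 and 1.10) and Klf2 fell (-1.16). By list, 1 of 21 inducible genes rose and 2 fell, 2 of 29 co-chaperones rose and 0 fell, 1 of 25 endoplasmic reticulum genes rose and 2 fell, beside 16.5% of all genes called, and 0 of 14 mitochondrial, 0 of 14 chaperonin and prefoldin genes and 0 of 3 heat shock factors passed. Of these last 3 lists, 0 genes had an unadjusted p under 0.05.

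In Treg against Tconv, P4ha1 (1.24), Edem1 (0.99), Xbp1 (0.85), Hspa4l (0.70), Dnaja4 (1.06) and Dnajb14 (0.74) rose and Hspb11 (-0.79) fell, and the immediate early genes Gadd45b (1.35) and Egr2 (0.97) rose while Ier3 (-3.08) fell, all by limma. Each of the calls of Dnaja4, Dnajb14, Hspb11, Xbp1 and Gadd45b was lost without at least 1 of the 9 values (adjusted p 0.052 to 0.165 by limma). By list, 2 inducible genes rose and 1 fell (Jmjd6), 2 genes of the co-chaperone list rose and 1 fell (Hspb11), and 2 endoplasmic reticulum genes rose and 0 fell, beside 14.4% of all genes called. With equal totals the falls of Hspb11 and Jmjd6 did not pass, and 3 endoplasmic reticulum genes were higher. Of mitochondrial genes, chaperonin and prefoldin genes and heat shock factors 0 passed, with 3, 3 and 0 at an unadjusted p under 0.05.

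Genes outside the 10 whose pattern over the 13 libraries was most like a member were listed by Pearson correlation of log2(scaled count + 1), which shares libraries, depth and scaling between genes. Hspa1b had r = 0.92 with Hspa1a. Outside the members the genes most like Hspa1a were Tob2 (r = 0.91), the overlapping gene Gm20481 (0.89), Gm129 (0.87), Fosb (0.87) and Tm2d1 (0.87). For Hspa5 they were Arntl (0.96), which encodes the clock factor BMAL1, Trim35 (0.94), Carhsp1, Ralb and Antxr2 (0.93 each). For Hspd1 they were Larp4 (0.93), Cox15 (0.93), Zfp874a, Msl3 and Zfp101 (0.92 each). Tob2 ranged from 1374 to 2513 and Arntl from 396 to 988.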

How the data were processed

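Trizol RNA was depleted of ribosomal RNA and made into Ion Torrent libraries, per the labels' protocols. The submitters' processing notes name Picard, HTSeq 0.5.4, limma and the builds mm9, hg19 and GRCh37, with no role for each. Aligner and strand setting: not given in the sources used here. Values of the deposited table (18649 genes, 13 libraries) are a signal that the authors scaled per library: less 1, each was a multiple of what 1 read is worth there, to within 0.001 reads. The added 1 was subtracted to give the scaled count. Reads were used for depth and intervals only.

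Where a population had 2 libraries in an experiment they were averaged, which left 9 values. The 14177 genes whose scaled count averaged at least 10 were tested on log2(scaled count + 1) with limma 3.58.1 in R 4.3.3, with a mean-level trend, 2-sided and with Benjamini-Hochberg adjustment over all tested genes. Errors of log2 differences are standard errors. Folds on this scale understate the change of low genes. The step was tested on simulated data. Pairs titled replicate had a chi-square per degree of freedom of 73.5 in Treg of experiment 3 and 7.77 to 9.05 in the others, above sampling noise. Libraries of a population from different experiments had 15.4 to 92.7. Both libraries of a pair are shown where values are given by library, and they were averaged for the main test. The titles pair samples by experiment, and deviations of samples of the same experiment from their population means correlated at -0.07 to 0.30 over 14177 genes, so blocked values are given where they changed the call of a member, and the list counts they changed are given with the alternatives. The difference between experiments was fitted with population as a term, so its errors reflect scatter among populations and not the spread between experiments.

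The 10 members and the lists were chosen with earlier results of these data known. Named beside the members are at most 10 listed genes per comparison with the largest difference among those past the test whose groups did not overlap. Other listed genes were named after their values were seen, to spell out counts. Of the lists, Hspb1, Hsf4 and Atf3 were too low to test. Hspb8 and Serpinh1 were not analysed here, and Pfdn6 was matched as H2-Ke2. Shared stretches of 100 bases and exon lengths come from GENCODE M21.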

Additional observations from a re-analysis of the deposited data

Results flagged for a closer look

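Hspa8 differed between experiments in opposite directions by population, with only small differences in Treg and Tconv. In PD1hi, experiment 6 was below both other experiments (mean log2 difference -0.57), while it was above both in Treg (0.045) and in Tconv (0.10). The Tconv mean was 67058.5 in experiment 6, close to 66284 in experiment 3, and 59422.5 in experiment 5. Hspd1 in experiment 6 was below both other experiments in PD1hi (-0.43) and above both in Treg (0.066). These differences between populations were not tested. The PD1hi side rests on the PD1hi library of experiment 6, which has the highest share of reads in mitochondrial genes (2.93%) and the fewest reads in genes (15971126). The second Treg library of experiment 3, with the next highest share (2.70%), also had less of both genes than its pair: 41064 against 62879 for Hspa8, and 2882 against 4425 for Hspd1. The Treg side rests on that library, since the Treg means of experiment 6, 53213 for Hspa8 and 3677 for Hspd1, lie below the first Treg library of experiment 3. The part of these library properties in the differences was not tested. Of the 20 groups of 5 libraries (10 genes in Treg and in Tconv), 0 held a library far from the others by Dixon's criterion.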

How the results depend on the processing

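Between PD1hi and Tconv the main count of 2 members past limma's test was unchanged under the other pseudocount, both filters, equal totals, the 2 populations alone and the 13 libraries as separate samples with or without an estimated correlation. With experiment as a replicate block it was 5, and with 1 value left out it ran from 0 to 2 (without PD1hi of experiment 3 the 2 were Hspa8 and Hspe1, not Hspa5). Between PD1hi and Treg the count of 0 became 2 with the replicate block, 0 to 1 with 1 value left out, 1 without the 2 libraries that stood apart and 2 without experiment 6. Between Treg and Tconv 0 became 2 without experiment 6, and the replicate block changed no call of a member there. Leaving out those libraries together, or experiment 6, was chosen after seeing the data. For listed genes outside the members in experiment 6 against 3 and 5, the count of 3 became 9 with 13 libraries taken separately, 11 without the libraries that stood apart and 0 to 11 with 1 value left out. Hspa8 changed sign in that comparison without PD1hi of experiment 6 (0.070; -0.26 to 0.070 with 1 value left out) and without both libraries that stood apart (0.0018). Hspd1 changed sign with 13 libraries separately (0.058), without the libraries that stood apart (0.083), and without PD1hi of experiment 5 (0.017) or 6 (0.15; -0.18 to 0.15 with 1 value left out). The causes were not tested. Between PD1hi and Tconv the replicate block gave 5 higher and 6 lower immediate early genes in place of 4 and 4, 4 lower chaperonin genes in place of 3 and 3 lower endoplasmic reticulum genes in place of 2. Between PD1hi and Treg it gave 4 higher and 5 lower immediate early genes in place of 3 and 4. Between Treg and Tconv it gave 4 higher and 3 lower immediate early genes in place of 2 and 1, and 1 lower gene in each of the mitochondrial and endoplasmic reticulum lists in place of 0. Equal totals moved higher calls between PD1hi and Tconv from 54.4% to 65.4% of all calls. Without PD1hi of experiment 6 the experiment difference was called for 1.3% of all tested genes, in place of 0.0353%. Depth limits Hspa1a and Hspa1b in experiment 6, at 3 to 63 reads a library.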
